A study of Homo sapiens with 10 samples.

Results

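Expression of 35 genes of hydrogen peroxide production and antioxidant defence was followed in NKX2-1 GFP+ cells sorted from thyroid organoids that had been grown out of human embryonic stem cells. The genes were taken by symbol from the deposited count files, which list 28265 gene symbols, and all 35 were found and passed the filter on low counts, as did 21014 genes in all. Bulk RNA-seq libraries were available for days 16, 23, 31, 38 and 45 of differentiation, 2 per day and 10 in all, each made from a fixed number of sorted cells of several pooled wells. Counted reads ran from 7247268 to 10333933 per library, and 3 counts, taken as the floor, equalled 0.307 to 0.436 CPM (counts per 1e6 counted reads after TMM scaling, a correction for library composition), which covers counting error only.

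All libraries came from the same line, ESIBIe003-A-6, a HES3 derivative that carries GFP in one NKX2-1 allele and a doxycycline-inducible lentiviral cassette for NKX2-1 and PAX8 in selected clones. Every group had gone through Activin A, then doxycycline, then basal medium. Day 16 closed the basal medium phase by the study's schedule, although the sample labels name c-AMP. The cells of days 23 and 31 had 8-br-cAMP, a cell-permeable cAMP analogue, and the schedule changed the medium on day 30 while the labels keep c-AMP for day 31. At day 38 the cells had recombinant human TSH (hrTSH) and dexamethasone, a glucocorticoid. At day 45 SB431542, an inhibitor of TGFβ receptor kinases, had been added, and the label names TSH and SB but not dexamethasone. Sources differ by 1 day on when SB431542 was first added, and the libraries of day 38 were taken as free of it, as labelled. By the labels the medium stayed the same from day 23 to day 31. From day 31 to day 38, from day 38 to day 45 and, by the schedule, from day 16 to day 23, time and medium changed together, and cells kept on cAMP alone are not analysed here, so in these steps neither can be told apart from the other. GFP reports NKX2-1, which lung and forebrain cells also make.

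Thyroid follicular cells make hydrogen peroxide on purpose, since the iodination of thyroglobulin consumes it. The dual oxidases DUOX1 and DUOX2, which leave the endoplasmic reticulum only with their maturation factors DUOXA1 and DUOXA2, release it at the apical membrane. Glutathione peroxidases, peroxiredoxins and catalase remove peroxide inside the cell and around it, thioredoxin and glutathione keep the first 2 of these families reduced, and the transcription factor NRF2 (gene NFE2L2), held back by KEAP1, switches on much of this defence through antioxidant response elements.

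RefSeq promoters of GRCh38.p14, beginning 250 bases before the start and running a short way past it, were matched for 28 of the 35 genes. The antioxidant response element core TGACNNNGC, searched on both strands, was in 4 of these 28 (GCLM, SELENOP, TXNRD1 and GPX2) and in 13.6% of 27305 promoters, a like share. A match describes letters in a window, not a bound site. A match of each of the 4 genes is shown, with 20 bases on each side and the core in capitals, because TXNRD1 and GCLM belong to the classical NRF2 programme and GPX2 and SELENOP fell in the same week as TXNRD1. The TXNRD1 window is chr12:104215660-104215708 (plus strand), the GCLM window chr1:93909436-93909484, the GPX2 window chr14:64942839-64942887 and the SELENOP window chr5:42811963-42812011 (all 3 minus strand), written 5′ to 3′ along the gene.
TXNRD1: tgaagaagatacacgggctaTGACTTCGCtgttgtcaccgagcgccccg
GCLM: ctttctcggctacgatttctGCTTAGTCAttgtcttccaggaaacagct
GPX2: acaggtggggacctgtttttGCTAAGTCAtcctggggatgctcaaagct
SELENOP: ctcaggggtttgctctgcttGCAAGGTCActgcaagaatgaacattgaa
TXNRD1 holds a second match close to its start. The stretch TGACG, a part of the cAMP response element, was in 4 of the 28 (TXN, TXNRD1, DUOXA1 and GPX4) against 25.0% of all promoters, and TGATGNAA, the C/EBP-ATF response element through which amino acid stress acts, was in GPX8 alone against 3.67%. The TGACG match of TXNRD1 lies inside its second antioxidant response element core. No promoter was matched for PRDX1, PRDX6, TXN2, SOD1, HMOX1, SLC7A11 and GSR.

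The cells carried thyroid transcripts throughout. The 10 thyroid markers summed to 1971 and 1546 CPM on day 16, stayed between 1743 and 1813 CPM on days 23 and 31, and reached 7544 and 6781 CPM on day 38 and 9383 and 8911 CPM on day 45. TG, thyroglobulin, made most of the later sums, with 5547 and 4875 CPM on day 38 and 7964 and 7525 CPM on day 45. On day 31 TG was at 200 and 212 CPM. From day 38 to day 45 TG rose while IYD, NKX2-1, HHEX and FOXE1 fell. Reads of NKX2-1 and PAX8 from the cassette cannot be told apart from those of the cells' own genes. Markers of other cells moved over the same days. The 8 mesenchymal markers, led by COL3A1, summed to 913 to 1773 CPM from day 16 to day 31 and to 3631 to 4540 CPM on days 38 and 45. The 6 distal lung markers summed to 4.80 to 14.1 CPM on day 16 and to 512 and 513 CPM on day 31, nearly all of it SFTPB, while SFTPC had at most 1 count in any library. The 8 hepatocyte markers, led by SERPINA1 from day 31 on, went from 16.4 and 16.7 CPM on day 16 to 656 and 644 CPM on day 45. Airway and goblet markers reached 182 and 104 CPM on day 45, led by MUC5B. Endothelial markers, led by KDR, summed to at most 41.4 CPM in any library. Forebrain markers, led by OTX2 on days 16 and 23 and by SOX2 later, summed to at most 36.7 CPM. Erythroid markers summed to at most 11.4 CPM, with HBB and HBG1 at 0 counts in all 10 libraries. The part of other cells in the changes described here was not tested, and in bulk samples more cells of a type and more RNA per cell cannot be told apart.

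Of the 35 genes, 28 (80.0%) differed between days in the quasi-likelihood F test of edgeR (adjusted after Benjamini and Hochberg), against 36.3% of all genes tested. The 35 were also more abundant than most, with a median level of 41.9 CPM against 11.2 CPM, so the background is not matched for level. The 7 without a call in that test over all days were CAT, SOD1, PRDX5, PRDX6, TXN2, GSR and KEAP1. Daily means were highest on day 45 for 15 genes (42.9%, against 26.3% of all genes tested) and on day 38 for 11 (31.4%, against 18.1%). Only 2 peaked on day 16, NOX4 and GCLC (5.71%, against 22.2%). Another 3 peaked on day 23 (8.57%, against 17.6%) and 4 on day 31 (11.4%, against 15.9%).

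From day 16 to day 23, as cAMP was given, 7 genes rose and 1 fell. HMOX1, DUOX2, NQO1, SELENOP, SLC7A11, TXNRD1 and GPX3 rose, and NFE2L3 fell. The background was 5.60% of all genes higher and 5.33% lower, and the median log2 fold change of the 35 was 0.14 against −0.02. From day 23 to day 31, both labelled c-AMP, none was called in the same fit, in which 1.58% of all genes were called higher and 0.666% lower. DESeq2 called 0 as well. At an unadjusted p under 0.05 there were 6 higher and 3 lower. The share of all genes at that unadjusted threshold is not given here, so these counts are not read as a result. From day 31 to day 38, when hrTSH and dexamethasone replaced cAMP, 11 rose and 6 fell, against 8.80% and 6.23% of all genes, with a median of 0.38 against 0. Those that rose were SLC7A11, DUOX2, DUOXA1, CYBA, GPX1, GPX4, GPX7, GPX8, PRDX2, PRDX3 and PRDX4. Those that fell were GPX2, NQO1, SELENOP, TXNRD1, NFE2L3 and GCLC. These 17 calls became 9 without replicate 1 of day 31 and 9 without replicate 1 of day 38. In the week from day 38, with SB431542 added, HMOX1, NFE2L3, GPX3, NFE2L2 and DUOX2 rose and NOX4, GPX8 and GPX7 fell, against 4.85% of all genes higher and 6.35% lower, with a median of 0.12 against −0.02. Over the whole course, day 45 against day 16, 18 rose and 4 fell, against 12.9% and 11.7% of all genes, and the median was 0.51 against 0. The scaling matters for the step to day 38. Without TMM factors the median of all genes moved to −0.20 and the share of higher genes among all calls from 58.5 to 33.3%, while 9 of the 35 rose and 6 fell, PRDX2 and PRDX4 no longer being called.

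**Figure D1:**
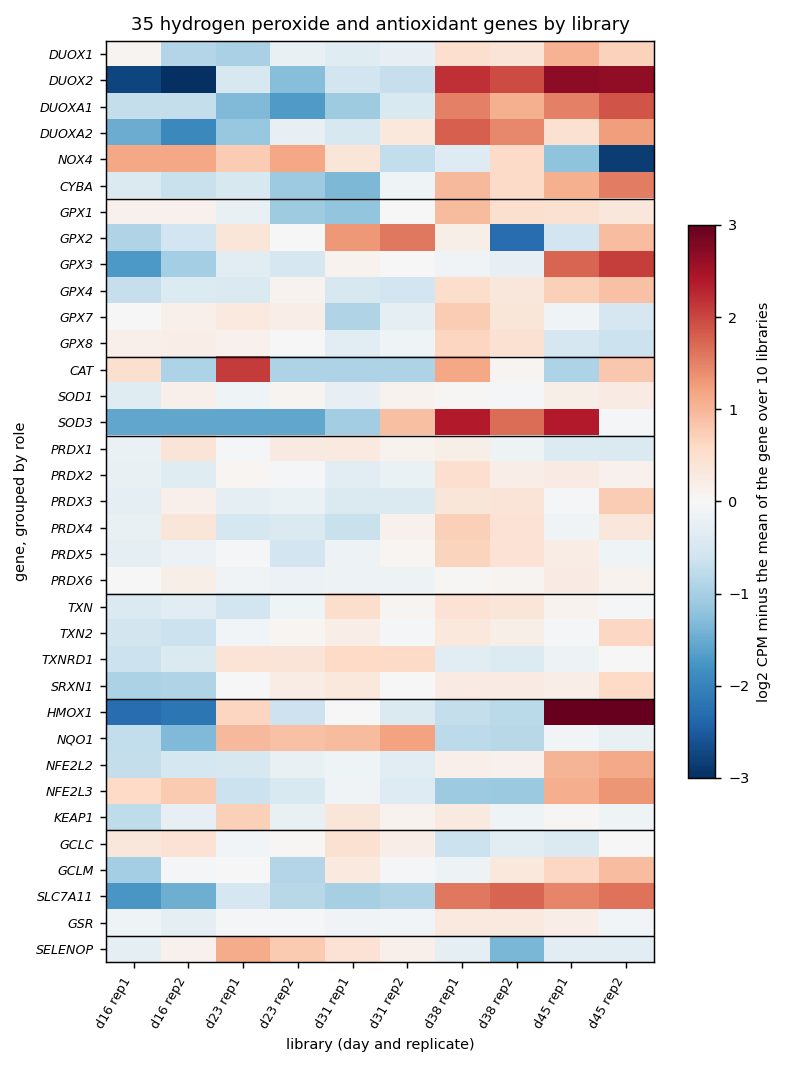
Log2 CPM of the 35 genes in each of the 10 libraries (columns, by day and replicate), minus the mean of the gene, with genes grouped by role and lines between the roles. Colours end at −3 and 3. DUOX2 and SLC7A11 turn from blue to red on day 38, HMOX1 is red on day 45, and the rows of PRDX6, SOD1 and GSR stay pale.

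**Figure D2:**
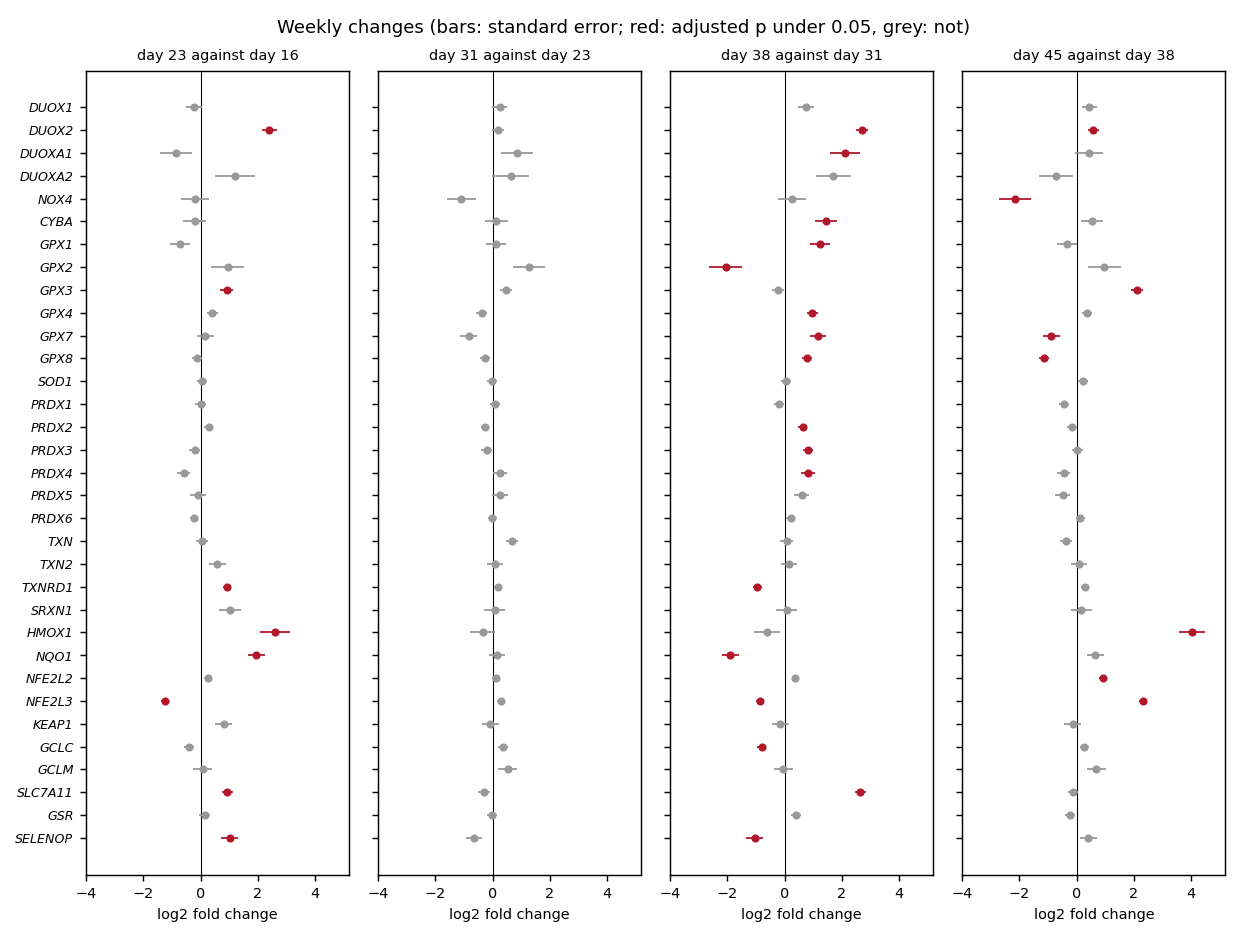
Log2 fold change (horizontal axis) of 33 genes over each week, with bars for the standard error and red points for an adjusted p under 0.05 in edgeR's quasi-likelihood test. CAT and SOD3 are left out for counts near 0. No point is red from day 23 to day 31, and 17 are red from day 31 to day 38.

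Of the 6 peroxide-producing genes, 3 rose from day 31 to day 38, DUOX2, DUOXA1 and CYBA, against 8.80% of all genes, and the median log2 fold change of the 6 was 1.57 against 0 for all genes tested. DUOX2, the main thyroid dual oxidase, lies on chromosome 15 (45092650 to 45114172, minus strand, GRCh38). It stood at 5.07 and 2.46 CPM on day 16, 25.5 and 14.4 on day 23, 23.8 and 21.9 on day 31, 163 and 138 on day 38, and 227 and 224 on day 45. The day 16 libraries lay below all others, days 23 and 31 overlapped, and days 38 and 45 were each clear of what came before. DUOX2 rose by day 23 (log2 fold change, here called log2 difference, of 2.41 with a standard error, SE, of 0.27, edgeR adjusted p = 6.42e-08) and again by day 38 (2.71, SE 0.22, edgeR adjusted p = 7.95e-12). The last week added 0.59 (edgeR adjusted p = 0.0478), which was no longer called on leaving out either library of day 31, day 38 or day 45. The mean level of day 45 was 59.9 times that of day 16.

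DUOX1, its paralogue, began higher and moved less. It was at 40.3 and 20.7 CPM on day 16, 19.3 and 32.6 on day 23, 29.6 and 32.0 on day 31, 53.8 and 49.7 on day 38, and 79.3 and 61.3 on day 45. Days 16 to 31 overlapped, and both later days were above them. The change from day 31 to day 38 was 0.75 and missed the threshold (edgeR adjusted p = 0.0511). It was called without the low-count filter, with only the libraries of both days and with the replicate number as a block. The same held without any 1 library of day 16 or day 23. Day 45 exceeded day 16 (1.2, SE 0.27, edgeR adjusted p = 0.000684), with values from 0.80 to 1.75 on leaving out 1 library. Per kilobase of transcript, the level of DUOX2 was 0.108 and 0.103 times that of DUOX1 on day 16, 1.14 and 0.381 times on day 23, 0.695 and 0.589 times on day 31, 2.61 and 2.38 times on day 38, and 2.47 and 3.15 times on day 45. The order of the 2 oxidases thus turned between day 31 and day 38, with 1 day 23 library already above 1. Of the 50-base stretches of their exons, 7.80% in DUOX1 and 9.14% in DUOX2 recur elsewhere on the chromosomes of GRCh38.

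Both maturation factors were higher on day 45 than on day 16. DUOXA1 had 3.17 and 3.20 CPM on day 16, 2.0 and 1.49 on day 23, 2.46 and 3.84 on day 31, 15.7 and 11.4 on day 38, and 15.8 and 20.5 on day 45. It rose with DUOX2 from day 31 to day 38 (log2 difference 2.10, SE 0.52, edgeR adjusted p = 0.00374). DUOXA2 had 1.27 and 0.862 CPM on day 16, 1.66 and 3.32 on day 23, 2.76 and 5.0 on day 31, 14.1 and 11.2 on day 38, and 5.52 and 9.72 on day 45. It was highest on day 38, and both day 45 libraries lay below both day 38 libraries, although only the comparison of day 45 with day 16 was called (2.83, SE 0.70, edgeR adjusted p = 0.00208). Its change from day 31 to day 38 was 1.71 (edgeR adjusted p = 0.0616), which was called with DESeq2, with only the libraries of both days, with the replicate number as a block and without any 1 library of day 16 or day 23. Per kilobase, DUOXA2 was at 0.906 and 1.27 times the level of DUOX2 on day 16, at 0.315 and 0.295 times on day 38 and at 0.0880 and 0.157 times on day 45. DUOXA1 shares 19.1% and DUOXA2 27.7% of its exon bases with neighbours on the other strand, and the strand setting of the counting is not given in the sources used here, so their values are uncertain.

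NOX4, a constitutively active NADPH oxidase that makes hydrogen peroxide, ran against the DUOX genes. It was at 17.6 CPM in both libraries of day 16, 13.3 and 17.6 on day 23, 9.93 and 4.54 on day 31, 5.83 and 11.6 on day 38, and 3.19 and 0.874 on day 45. Both day 45 libraries were below all others. It fell from day 38 to day 45 by 2.14 on the log2 scale (SE 0.56, edgeR adjusted p = 0.0082) and from day 16 by 3.15 (edgeR adjusted p = 3.98e-05). CYBA, which encodes p22phox, the membrane partner of NOX4 and other oxidases, went the other way. It had 9.13 and 7.76 CPM on day 16, 8.87 and 5.72 on day 23, 4.71 and 11.3 on day 31, 24.7 and 18.5 on day 38, and 26.4 and 36.3 on day 45, a log2 difference of 1.44 between days 31 and 38 (SE 0.40, edgeR adjusted p = 0.00958). The calls of CYBA and DUOXA1 in that week were lost without replicate 1 of day 31 or of day 38 (log2 fold changes 0.94 and 1.22 for CYBA, 1.81 and 1.86 for DUOXA1), and without replicate 2 of day 31 the value for CYBA was 2.19. The fall of NOX4 from day 38 to day 45 ran from −1.44 (without replicate 2 of day 45) to −3.30 (without replicate 1 of day 45). It was not called without replicate 2 of day 38 or of day 45. The fall of NOX4 from day 16 to day 45 was called under all of these, and ran from −2.46 to −4.31 with 1 library left out.

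**Figure D3:**
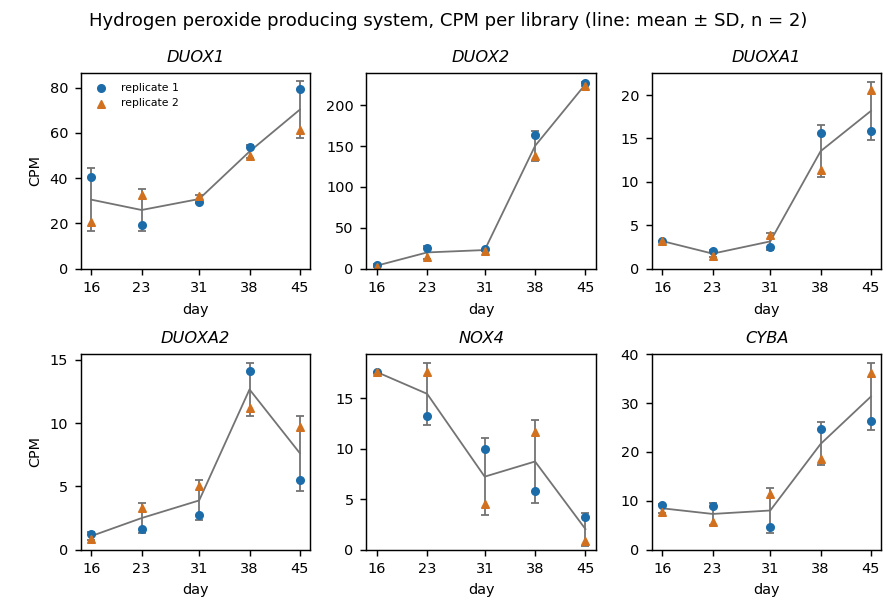
CPM of the 6 peroxide-producing genes by day (horizontal axis), with 1 point per library and a line for the mean ± SD of the 2 libraries. DUOX2 climbs on day 38 to 163 and 138 CPM, NOX4 declines to 3.19 and 0.874 CPM on day 45, and DUOXA2 is highest on day 38.

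Among the other NADPH oxidases and their subunits, NOX5 fell from day 31 to day 38. NOX5, a calcium-gated oxidase, had 0 and 1 counts on day 16, 15 and 29 on day 23, 186 and 147 on day 31, 7 and 21 on day 38, and 22 and 23 on day 45. It was high on day 31 and rose from day 23 (2.85, edgeR adjusted p = 0.0186), then fell by 3.49 to day 38 (edgeR adjusted p = 0.000653). CYBB, the phagocyte oxidase, had at most 19 counts in any library.

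The glutathione peroxidases diverged, and from day 31 to day 38 4 of the 6 rose and GPX2 fell, against 8.80% of all genes called higher and 6.23% lower, with a median of 0.87 against 0. GPX3, the secreted form that healthy thyroid follicles make in quantity, was at 12.6 and 20.7 CPM on day 16, 33.5 and 29.6 on day 23, 45.2 and 42.5 on day 31, 39.1 and 35.6 on day 38, and 143 and 179 on day 45. Its rise by day 23 was 0.92 on the log2 scale (SE 0.22, edgeR adjusted p = 0.00464) and was lost without replicate 1 of day 16 or of day 23. Its rise from day 38 to day 45 was 2.11 (SE 0.21, edgeR adjusted p = 5.10e-09), and both day 45 libraries stood far above the rest. GPX4, which clears lipid hydroperoxides and restrains ferroptosis, was at 38.7 and 46.5 CPM on day 16, 46.0 and 66.9 on day 23, 44.9 and 41.9 on day 31, 90.1 and 79.4 on day 38, and 103 and 115 on day 45. The 4 libraries of days 38 and 45 were above the other 6, with a rise of 0.96 from day 31 to day 38 (SE 0.19, edgeR adjusted p = 0.000392).

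GPX7 and GPX8, the glutathione peroxidases of the endoplasmic reticulum, where disulfide formation yields peroxide, were both highest on day 38 and lower on day 45. GPX8 had 76.6 and 79.9 CPM on day 16, 75.3 and 70.1 on day 23, 55.9 and 63.8 on day 31, 109 and 95.9 on day 38, and 48.6 and 44.1 on day 45. It rose by 0.77 to day 38 (edgeR adjusted p = 0.00153) and fell by 1.14 to day 45 (SE 0.18, edgeR adjusted p = 1.48e-05), ending below every earlier library. The rise was not called without replicate 1 of day 38. GPX7 took the same course, with daily means of 15.8 ± 4.66, 35.3 ± 6.76 and 19.2 ± 3.92 CPM on days 31, 38 and 45 (SD, n = 2), and log2 fold changes of 1.16 and −0.89 (edgeR adjusted p = 0.00459 and 0.0431). The second of these was lost when any library of day 38 or day 45 was left out, with DESeq2 and with library size alone.

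GPX1, the ubiquitous cytosolic form, had 8.50 and 19.9 CPM on day 31 and 38.2 and 27.8 on day 38, a rise of 1.22 (SE 0.35, edgeR adjusted p = 0.0119), and 39.9% of its exon bases belong also to another annotated gene on the same strand, so its values are uncertain. GPX2, the form of gut epithelium, had 3.68 and 4.68 CPM on day 16, 9.20 and 6.97 on day 23, 17.8 and 21.8 on day 31, 8.10 and 1.28 on day 38, and 4.65 and 13.7 on day 45. Both day 31 libraries were above all others, and the fall to day 38 was 2.07 on the log2 scale (SE 0.58, edgeR adjusted p = 0.0113). Without replicate 2 of day 38 (−1.29), or without either library of day 31, GPX2 was not called, and without replicate 1 of day 38 its value was −3.93. Over the 6 glutathione peroxidases together, summed levels per kilobase were 121 and 139 CPM on day 16, 135 and 154 on day 31, 243 and 198 on day 38, and 277 and 314 on day 45.

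The peroxiredoxins, thiol peroxidases that react with peroxide faster than most enzymes, rose in 3 of 6 genes from day 31 to day 38, against 8.80% of all genes, with a median log2 fold change of 0.61 against 0. Their summed levels per kilobase were 375 and 456 CPM on day 16, 380 and 401 on day 31, 565 and 490 on day 38, and 439 and 474 on day 45, so that the 2 day 38 libraries were the highest. From day 31 to day 38 the cytosolic PRDX2 rose by 0.63 (SE 0.15, edgeR adjusted p = 0.00302), the mitochondrial PRDX3 by 0.82 (SE 0.19, edgeR adjusted p = 0.00181) and PRDX4 of the endoplasmic reticulum by 0.81 (SE 0.24, edgeR adjusted p = 0.0157), on the log2 scale. PRDX3 was at 82.2 and 109 CPM on day 16, 80.9 and 86.1 on day 23, 72.7 and 72.4 on day 31, 127 and 129 on day 38, and 94.5 and 166 on day 45. Its day 45 libraries stood apart from each other, and against day 16 its value was 0.45 (edgeR adjusted p = 0.0804), or −0.02 without replicate 2 of day 45. PRDX1, also cytosolic, was lower on day 45 than on day 16, at 67.9 and 66.7 against 79.0 and 118 CPM (log2 difference −0.55, edgeR adjusted p = 0.0237), and the call was lost without replicate 2 of day 16 (−0.23) or without either library of day 45. PRDX5 and PRDX6 were not called in any comparison, and PRDX6 stayed between 91.7 and 124 CPM. The calls of PRDX2 and PRDX4 on day 38 were lost without replicate 1 of day 31 or of day 38, as were those of GPX1 and GPX7. With 1 library left out, PRDX4 ranged from 0.47 to 1.26 and GPX1 from 0.73 to 1.95.

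**Figure D4:**
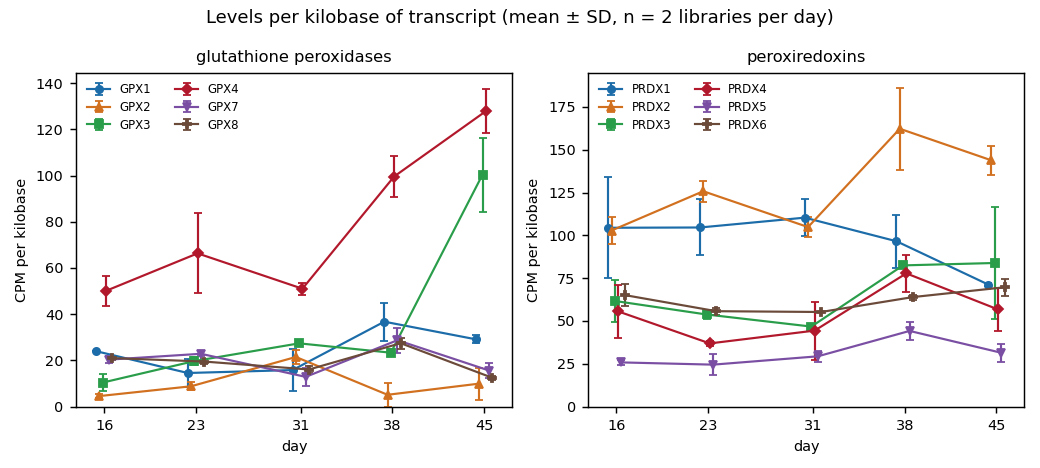
Levels of the 6 glutathione peroxidases (left) and the 6 peroxiredoxins (right) by day, in CPM per kilobase of transcript, as mean ± SD of 2 libraries, with points of a day set slightly apart. GPX3 and GPX4 stand above the other glutathione peroxidases on day 45, while PRDX1 and PRDX2 stand highest among peroxiredoxins on day 31.

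Catalase, the peroxisomal enzyme that splits hydrogen peroxide, was close to the floor throughout. CAT had 3 and 0 counts on day 16, 15 and 0 on day 23, 0 and 0 on day 31, 7 and 2 on day 38, and 0 and 5 on day 45, and it was not called in any comparison. Its exons do not overlap another annotated gene. A change was not detectable at this depth. SOD1, the cytosolic superoxide dismutase that turns superoxide into hydrogen peroxide, was by contrast among the most abundant of the 35 per kilobase of transcript, with levels between 83.8 and 129 CPM in every library, and was not called in any comparison either. SOD3, the secreted superoxide dismutase, had 0 counts in all 4 libraries of days 16 and 23, 1 and 9 on day 31, 31 and 17 on day 38, and 23 and 4 on day 45. Day 45 was called higher than day 16 (edgeR adjusted p = 0.0433), but replicate 2 of day 45, at 0.437 CPM, was close to the floor of 3 counts in the day 16 libraries, 0.380 and 0.369 CPM, and replicate 1 was at 3.34 CPM. This call was lost with the replicate number as a block and without any 1 of 5 libraries, both of day 16, both of day 38 and replicate 1 of day 45.

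In the thioredoxin system the reductase moved and thioredoxin itself was not called between any 2 days compared. TXNRD1, the cytosolic thioredoxin reductase and a selenoprotein, was at 68.5 and 79.4 CPM on day 16, 143 and 138 on day 23, 162 and 158 on day 31, 84.2 and 80.3 on day 38, and 96.3 and 106 on day 45. The 4 libraries of days 23 and 31 were above all others. It rose by 0.93 to day 23 (SE 0.15, edgeR adjusted p = 3.96e-05) and fell by 0.96 to day 38 (SE 0.15, edgeR adjusted p = 1.24e-05). TXN, its substrate, had 34.5 and 36.7 CPM on day 16, 67.7 and 49.7 on day 31, 62.8 and 60.3 on day 38, and 50.2 and 45.3 on day 45, and was called only over all days (edgeR adjusted p = 0.00584). The mitochondrial TXN2 was higher on day 45 than on day 16 (24.5 and 38.8 against 17.2 and 16.0 CPM, log2 fold change 0.93, edgeR adjusted p = 0.0133), a call lost without replicate 2 of day 16 or of day 45, where the lowest value was 0.56. SRXN1, sulfiredoxin, which repairs overoxidised peroxiredoxins, was higher on day 45 than on day 16 as well (1.36, edgeR adjusted p = 0.00707), a call lost without replicate 2 of day 45 (1.15), and 90.7% of its exon bases lie also in another gene on the same strand, so its value is uncertain.

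Of the 4 genes of glutathione synthesis and reduction, SLC7A11 rose and GCLC fell from day 31 to day 38, against 8.80% of all genes called higher and 6.23% lower. SLC7A11, the cystine importer of system xc-, was at 13.3 and 16.3 CPM on day 16, 31.7 and 25.2 on day 23, 22.3 and 24 on day 31, 136 and 153 on day 38, and 125 and 140 on day 45. The 4 libraries of days 38 and 45 were clear of the other 6. It rose by 0.94 to day 23 (SE 0.20, edgeR adjusted p = 0.00136), a call lost with only the libraries of both days. From day 31 to day 38 it rose by 2.64 (SE 0.20, edgeR adjusted p = 1.22e-12), and its mean on day 45 was 8.97 times that on day 16. GCLC, the catalytic subunit of the enzyme that joins cysteine to glutamate, did the opposite, with 122 and 130 CPM on day 16, 90.4 and 99.6 on day 23, 133 and 111 on day 31, 61.6 and 77.9 on day 38, and 71.0 and 97 on day 45. It fell by 0.80 from day 31 to day 38 (SE 0.17, edgeR adjusted p = 0.000784), a call lost without replicate 1 of day 38. Its regulatory subunit GCLM had 10.0 and 19.7 CPM on day 16 and 31.5 and 39.1 on day 45 (1.25, SE 0.34, edgeR adjusted p = 0.00527), although the call was lost without replicate 1 of day 16 or replicate 2 of day 45, with values from 0.83 to 1.82 on leaving out 1 library. GSR, which reduces oxidised glutathione, was between 56.9 and 85.0 CPM and was not called.

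The genes of the NRF2 group did not move as one. HMOX1, heme oxygenase 1, which degrades heme and is induced by oxidants and heme, was at 0.888 and 0.985 CPM on day 16, 8.31 and 3.32 on day 23, 5.32 and 3.84 on day 31, 3.13 and 2.91 on day 38, and 50.2 and 49.3 on day 45. Both day 45 libraries were far above all others, with a rise from day 38 of 4.03 on the log2 scale (SE 0.46, edgeR adjusted p = 6.56e-08), a 16.5-fold ratio of means. Its earlier rise to day 23 (2.62, SE 0.53, edgeR adjusted p = 0.000637) was 1.81 and not called without replicate 1 of day 23. Markers of phagocytes, cells that a sort for NKX2-1 GFP+ should remove, moved at the same time. The 8 phagocyte markers summed to 7.09 to 30.2 CPM from day 16 to day 38 and to 81.6 and 67.5 CPM on day 45, when CD68 was at 36.4 and 35.9 CPM, ITGAM at 23.5 and 9.61 CPM, PTPRC, the pan-leukocyte marker, at 4 and 0 counts, and CYBB at 19 and 0 counts. Of the 8, 4 rose from day 38 to day 45 (CD68, ITGAM, CSF1R and CD14), against 4.85% of all genes. CD14 had 28 and 17 counts on day 31, 0 in both day 38 libraries, and 22 and 36 on day 45. CSF1R had 30 and 25 counts on day 31, 2 and 5 on day 38, and 39 and 70 on day 45. These 2 of the 8 markers had been called lower from day 31 to day 38, against 6.23% of all genes, so their later rise started from a low day 38. PTPRC was highest on day 16, with 64 and 17 counts, when HMOX1 was lowest. Their part in the rise of HMOX1 was not tested.

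NQO1, a quinone reductase, followed TXNRD1 rather than HMOX1. It was at 11.9 and 7.88 CPM on day 16, 39.5 and 37.4 on day 23, 39.0 and 46.7 on day 31, 11.7 and 11.3 on day 38, and 18.9 and 17.3 on day 45. Days 23 and 31 stood above all other libraries, with a rise of 1.96 (SE 0.30, edgeR adjusted p = 1.27e-05) and a fall of 1.90 (SE 0.29, edgeR adjusted p = 9.44e-06) on the log2 scale. SFTPB, the lung surfactant gene named above, had the same 2 days as its highest, at 165 and 149 CPM on day 23 and 499 and 502 on day 31, and was at 6.59 and 8.62 CPM on day 38. The relation of SFTPB to NQO1, TXNRD1 and GPX2 was not tested.

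NFE2L2, the gene of NRF2 itself, was at 118 and 136 CPM on day 16, 140 and 166 on day 23, 179 and 154 on day 31, 218 and 214 on day 38, and 393 and 428 on day 45. The rise from day 38 to day 45 was 0.93 (SE 0.14, edgeR adjusted p = 6.57e-06), and day 45 was above every other library. NRF2 is controlled chiefly through its protein, which these libraries do not measure, and 38.4% of the exon bases of the gene are shared with neighbours. NFE2L3, a related factor, had 213 and 244 CPM on day 16, 90.8 and 103 on day 23, 131 and 108 on day 31, 65.9 and 65.4 on day 38, and 301 and 352 on day 45. It was lowest on day 38 and highest on day 45, with a fall of 1.24 by day 23 (edgeR adjusted p = 1.26e-07), a fall of 0.86 by day 38 (edgeR adjusted p = 4.37e-05) and a rise of 2.31 by day 45 (SE 0.15, edgeR adjusted p = 3.37e-13). The exons of NFE2L3 share 28.1% of their bases with neighbours, those of NQO1 19.4% and those of PRDX1 29.8%, so these values are uncertain in the same way. KEAP1, the inhibitor of NRF2, was between 15.1 and 42.3 CPM and was not called.

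**Figure D5:**
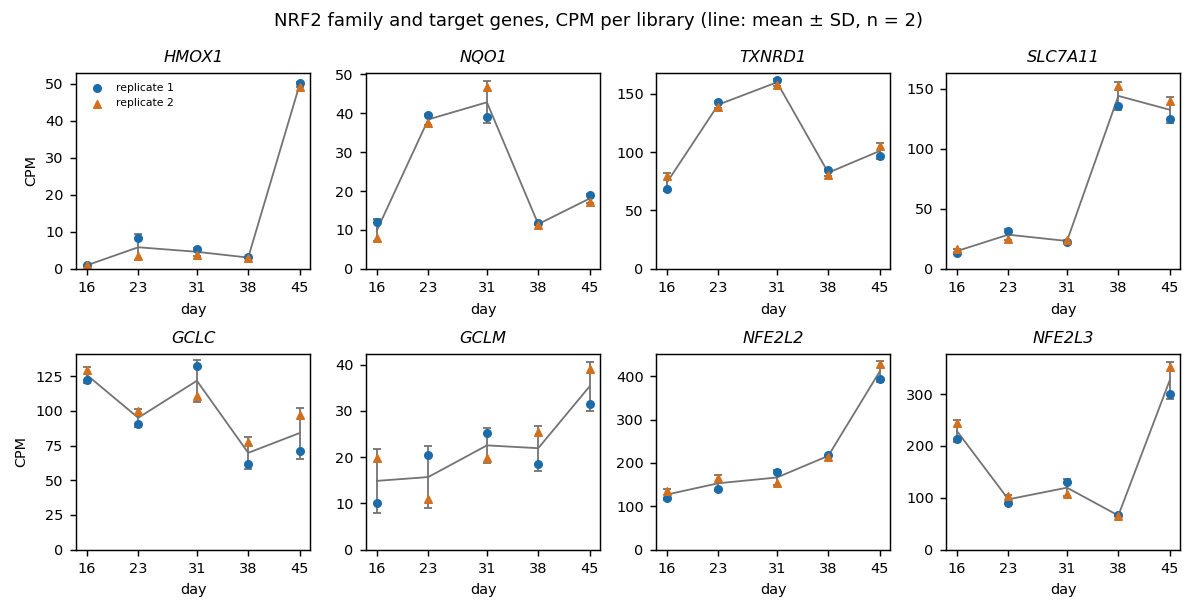
CPM of 8 genes of the NRF2 family and its targets by day, with 1 point per library and a line for the mean ± SD of the 2 libraries. HMOX1 reaches 50.2 and 49.3 CPM on day 45, SLC7A11 climbs on day 38, and NQO1 and TXNRD1 are highest on days 23 and 31.

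Of 20 further NRF2 targets, 5 rose from day 16 to day 23 and none fell, against 5.60% and 5.33% of all genes, and their median log2 fold change was 0.23 against −0.02 for all genes tested. Among these 5 were AKR1C2, PGD (0.91, edgeR adjusted p = 0.000128) and FTH1 (0.88, edgeR adjusted p = 0.0066), a steroid reductase, an enzyme of NADPH supply and the heavy ferritin chain. From day 31 to day 38, AKR1C2, AKR1C1 and TKT fell, against 6.23% of all genes, and the median of the 20 was −0.39 against 0. AKR1C2 had 33.5 and 38.6 CPM on day 31 and 6.16 and 0.349 on day 38 (−3.45, edgeR adjusted p = 0.000144), and it shares sequence with AKR1C1. From day 38 to day 45, 4 of the 20 rose (ABCC2, FTH1, FTL and UGDH) and 2 fell (PGD by 0.67 and TKT by 0.41), against 4.85% of all genes called higher and 6.35% lower. FTH1 went from 102 and 81.3 to 216 and 155 CPM (1.02, edgeR adjusted p = 0.000878) and the light ferritin chain FTL also rose (0.69, edgeR adjusted p = 0.000109), so both iron storage genes rose in the week in which HMOX1 did. ABCC2, an exporter, was at 2.48 and 2.33 CPM on day 38 and at 6.53 and 22.8 on day 45 (2.61, edgeR adjusted p = 0.00695), so that 1 library carries most of the difference.

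Among 10 partners and regulators of NRF2, none fell and 5 rose from day 38 to day 45, namely SQSTM1, MAFF, MAFG, BACH1 and CUL3, against 4.85% of all genes called higher and 6.35% lower, with a median log2 fold change of 0.34 against −0.02. SQSTM1, the autophagy receptor p62 that captures KEAP1, had 113 and 109 CPM on day 38 and 366 and 330 on day 45 (log2 difference 1.65, SE 0.16, edgeR adjusted p = 2.98e-09). The small MAF proteins, with which NRF2 pairs on DNA, rose by 1.47 (MAFF, edgeR adjusted p = 0.00109) and 1.22 (MAFG, edgeR adjusted p = 0.000489). In the week before, from day 31 to day 38, 4 of the 10 had fallen (BACH2, MAFG, SQSTM1 and BACH1) and NFE2L1 had risen, where 6.23% of all genes were called lower and 8.80% higher.

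Of 32 further glutathione, thioredoxin and superoxide enzymes 30 were tested, and the shares called were near those of all genes. From day 38 to day 45, 1 of the 30 rose and 2 fell, against 4.85% and 6.35% of all genes. SOD2, the mitochondrial superoxide dismutase, rose from 94.3 and 109 to 279 and 272 CPM (1.44, SE 0.15, edgeR adjusted p = 9.64e-09), while TXNIP, the inhibitor of thioredoxin, fell by 1.05 (edgeR adjusted p = 8.19e-08) and MSRB2 by 1.62. From day 31 to day 38, 3 rose, GSTA4, PRXL2A and MGST3, and none fell, against 8.80% and 6.23% of all genes.

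SELENOP, the plasma carrier of selenium that hepatocytes secrete, was at 21.0 and 28.1 CPM on day 16, 55.5 and 44.1 on day 23, 34.8 and 28.4 on day 31, 20.7 and 9.78 on day 38, and 20.3 in both libraries of day 45. Both day 23 libraries were above all others. It rose by 1.02 to day 23 (edgeR adjusted p = 0.0185) and fell by 1.05 between days 31 and 38 (edgeR adjusted p = 0.0131). The first call was lost without replicate 1 of day 16 or of day 23 and the second, which ranged from −0.61 to −1.69, without replicate 1 of day 31 or replicate 2 of day 38, and 37.4% of its exon bases are shared with genes on the other strand. Of the 8 hepatocyte markers, 4 rose by day 23 (SERPINA1, FGB, TTR and APOB), and from day 31 to day 38 4 fell (TTR, FGB, APOA1 and APOB) and SERPINA1 rose. Between these weeks, from day 23 to day 31, 6 of the 8 rose and none fell, while SELENOP was lower (log2 difference −0.66, edgeR adjusted p = 0.352, not called). The background was 5.60% of all genes called higher by day 23, 1.58% higher by day 31, and 6.23% lower and 8.80% higher by day 38. ALB, the defining hepatocyte transcript, had at most 8 counts per library on days 16 and 23 and was at 119 and 95.8 CPM on day 45. Hepatocytes, like phagocytes, are cells that a sort for NKX2-1 GFP+ should remove. The part of hepatocytes in the course of SELENOP was not tested. Of 22 genes of selenium use, 3 rose from day 31 to day 38 and 1 fell, against 8.80% and 6.23% of all genes, which is near the background. LRP8, a receptor that takes up SELENOP, went from 19.7 and 21.6 to 72.9 and 66.5 CPM (1.76, edgeR adjusted p = 4.38e-06), and DIO2, a deiodinase and selenoprotein that activates thyroid hormone, from 216 and 243 to 773 and 746 CPM (1.72, edgeR adjusted p = 2.28e-12). SEPHS2, which makes the selenium donor for selenoproteins, rose with them, and SECISBP2, which reads the selenocysteine signal, fell by 0.60 (edgeR adjusted p = 0.00932).

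Compared per kilobase of transcript, the order of the 35 genes changed over the course. At day 16 the highest levels were those of SOD1 (114 ± 29.1 CPM per kilobase, SD, n = 2), PRDX1 (104 ± 29.4) and PRDX2 (103 ± 7.76), 3 neighbours that did not differ beyond their spread. At day 45 NFE2L2 led with 168 ± 10.0, followed by PRDX2 with 144 ± 8.64, SOD1 with 140 ± 5.18, GPX4 with 128 ± 9.55 and GPX3 with 100 ± 16.0. The place of NFE2L2 is uncertain, since its level was divided by a canonical transcript of 2446 bases while its counted exons span 14975 bases, 38.4% of them shared with neighbours. PRDX2 and SOD1 did not differ beyond their spread at that day. The 6 peroxide-producing genes together stood at 27.2 and 21.0 CPM per kilobase on day 16, 25.0 and 23 on day 23, 20.6 and 30.7 on day 31, 85.7 and 70.2 on day 38, and 97.4 and 111 on day 45. CYBA made the largest part of these sums on day 45, with 45.3 ± 10.1, and is uncertain in the same way, its canonical transcript having 692 bases and its counted exons 4161. The sums for catalase and the superoxide dismutases, nearly all SOD1, ran only from 93.8 to 144 over the same libraries.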

How the data were processed

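Bulk RNA-seq libraries (NuGen Solo, paired-end) of sorted NKX2-1 GFP+ cells were grouped by the day and replicate of their labels, 2 per day on days 16, 23, 31, 38 and 45. The files deposited by the authors hold raw counts, whole numbers per gene symbol without normalization, made with Trimmomatic (trimming), HISAT2 (alignment) and HTSeq (counting) on the Ensembl annotation GRCh38.p13. The strand setting is not given in the sources used here. PCR copies may add to the counts.

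A gene was tested when 2 or more libraries had 5 or more counts. The fit, in R 4.3.3 with edgeR 4.0.16, used glmQLFit, glmQLFTest and TMM factors from 0.896 to 1.07, with 1 mean for each day over 10 libraries and 5 residual degrees of freedom. The Benjamini-Hochberg method was applied over all 21014 genes, with a threshold of 0.05. Each standard error was obtained as the size of the log2 fold change over the root of its F statistic. Levels per kilobase used the Ensembl canonical transcript of GENCODE 44, in which 25474 of the 28265 symbols (90.1%) were matched. Replicates of a day differed by more than sampling noise (chi-square over its degrees of freedom, 8.38 to 13.7; r across genes 0.940 to 0.970 on the log2 CPM scale). The replicates came from separate pools of wells, and p-values measure the spread between these samples only. The procedure was tested on simulated counts. Same-numbered libraries of different days did not deviate together (r from −0.03 to 0.02 over 10 pairs), so replicate numbers were not taken to pair days.

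Alternatives tried were DESeq2 1.42.0, scaling by library size, no filter, filterByExpr, fits of 2 days alone, a block for the replicate number, a minimum log2 fold change of 1, and leaving out each library. All 35 genes were named by role, with values for those called, and at most 3 higher and 3 lower genes by size from each further list. The 35 genes, the further lists and the marker lists were chosen with earlier results of these data known. Results of some listed genes are not reported here.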

Additional observations from a re-analysis of the deposited data

How the results depend on the processing

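Over the 5 comparisons between days, 55 results of the 35 genes were called, and 28 of them were called under every alternative other than the minimum log2 fold change of 1. None of the 55 changed direction. Calls lost were 1 with DESeq2, 6 with library size alone, 0 without the low-count filter, 1 with filterByExpr, 8 of 54 with only the libraries compared, and 0 to 11 with 1 library left out, most without replicate 1 of day 38. Of 6 further results with an adjusted p from 0.05 to 0.1, calls gained were 2 with DESeq2, 3 without the low-count filter, 3 with only the libraries compared, 4 with the block, and 0 to 4 with 1 library left out. PRDX3, not called for day 45 against day 16, had a log2 fold change of 0.45, which ran from −0.018 (without replicate 2 of day 45) to 0.79 (without replicate 1 of day 45) with 1 library left out. The number of the 35 genes called for day 23 against day 16 was 8, and 5 with only the libraries compared, 5 with a log2 fold change of at least 1, and 5 to 9 with 1 library left out (5 without replicate 1 of day 23). For day 38 against day 31 it was 17, and 9 with a log2 fold change of at least 1 and 9 to 20 with 1 library left out (9 without replicate 1 of day 31 or of day 38). For day 45 against day 38 it was 8, and 5 with a log2 fold change of at least 1 and 5 to 8 with 1 library left out (5 without replicate 2 of day 38 or of day 45). For day 45 against day 16 it was 22, and 14 with a log2 fold change of at least 1 and 15 to 22 with 1 library left out. The cause of these shifts was not tested beyond the fewer samples or the added threshold. With the replicate number as a block the counts were 8, 0, 20, 8 and 22 over the comparisons in order of time, and 28 over any day. The block added DUOX1, DUOXA2 and NFE2L2 from day 31 to day 38 and PRDX3 for day 45 against day 16, lost SOD3 there, and changed no other call. With 2 libraries per day, counts near the floor of 3 limit what CAT and SOD3 can show.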
